A study of Mus musculus with 12 samples.

Results

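Conventionalized (CV) and germ-free (GF) mice labelled female were compared by RNA sequencing of the liver, 3 libraries against 3, which is 6 of the 12 libraries of the series. All 6 were C57BL/6 mice kept in sterile isolators until weaning at 21 days. The GF mice stayed in the isolators, the CV mice lived for 3 weeks in cages with dirty bedding taken from other parts of the facility, which carries microbes, and all were sacrificed at 6 weeks of age. The labels name no mutant allele and no drug, and the sources used here do not give the litter, the cage, the hour of tissue collection or the date of library preparation. Exposure to microbes, the change of housing and any difference in handling between the isolator and the cages therefore cannot be told apart, and p-values measure the spread between the 3 libraries of a group, which may be partly technical. Libraries are named by group and replicate number, as in GF 1. The genes described are those with a mean normalised read count of at least 10 over these 6 libraries, 11853 of the 41128 in the table. A normalised read count is the number of reads of a gene divided by 1 size factor per library. The genes nearest to the limit were Cyp3a16, at 10.0006, and Zfp503, at 9.9998. Xist, the RNA expressed from the inactive X chromosome, was read in all 6 libraries (7607 to 11928 in GF and 1045 to 1089.6 in CV), and the Y-linked genes Ddx3y and Uty were at 0 in all 6. Of the 5 sex chromosome markers listed, Xist included, 3 were at 0 in all 6. The sum over all 5 ran from 7607 to 11930 in GF, little above Xist alone.

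The liver receives the blood that drains the intestine and is thus the organ that meets microbial products, bile acids altered by bacteria and absorbed nutrients before the rest of the body does. Hepatocytes burn and export lipid, make bile acids, clear ammonia and foreign compounds, store vitamin A, activate thyroid hormone and secrete most plasma proteins, while Kupffer cells, the resident macrophages, take up bacteria and their fragments. Germ-free animals lack the bacterial partners of these tasks, and conventionalization supplies a community of microbes to an animal that grew up without one.

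The make-up of the libraries differed between GF and CV, and it bears on every value that follows. The ribosomal RNAs of the mitochondrion, mt-Rnr1 and mt-Rnr2, took 15.1, 16.4 and 13.4% of all reads in the GF livers and 1.51, 1.81 and 1.78% in the CV livers. The groups lay far apart, with means of 15.0% ± 1.46 (SD, n = 3) and 1.70% ± 0.165 (SD, n = 3), an 8.79-fold difference. An exact two-sided permutation test of 3 against 3 gave p = 0.1, the smallest p it allows. A set of 9 abundant loci (both of these genes, Lars2, Mir6236, Gm42418, Gm23935, Gm15564, Gm26917 and Gm24270), known from earlier results of these data, held 58.5, 68.3 and 69.8% of the GF reads and 5.80, 7.53 and 8.03% of the CV reads. Nuclear RNA differed in the same direction. Malat1 and Neat1, long noncoding RNAs that stay in the nucleus, together took 0.905% ± 0.271 of the GF reads and 0.0496% ± 0.0143 of the CV reads (SD, n = 3). The reverse held for 10 hepatocyte messenger RNAs (Alb, Apoa2, Apoc3, Serpina1a, Fgb, Ahsg, Tat, Asgr1, Cps1 and Hpd), which took 2.51, 2.14 and 1.23% of the GF reads and 7.79, 8.99 and 8.70% of the CV reads, again without overlap. The labels give the same messenger RNA kit for every library. Since all 3 GF libraries lay on 1 side and all 3 CV libraries on the other, these shares and the condition cannot be told apart, and their part in the results below was not tested.

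**Figure D1:**
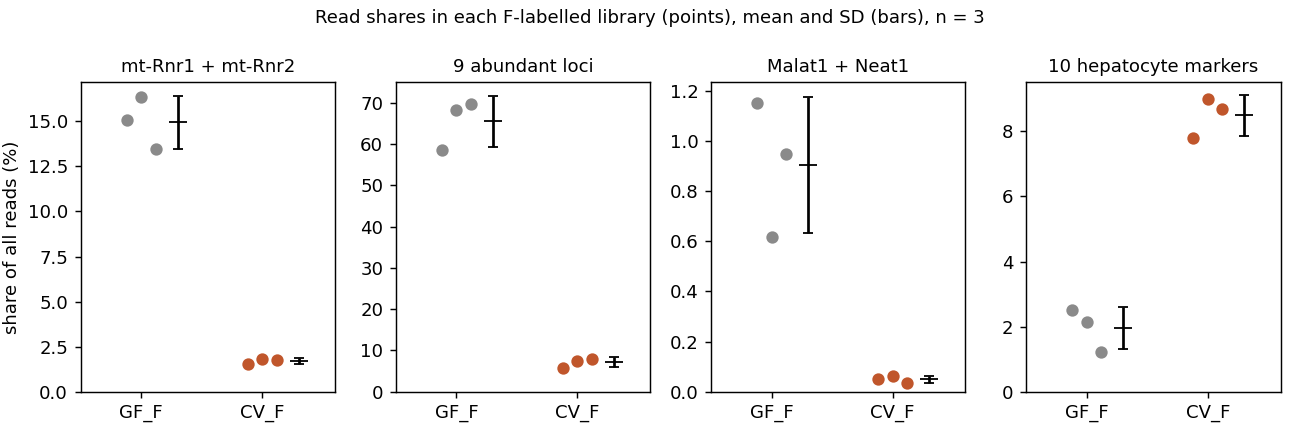
Share of all reads, in percent, of mt-Rnr1 plus mt-Rnr2, of the 9 abundant loci, of Malat1 plus Neat1 and of the 10 hepatocyte markers in each GF_F and CV_F library (points), with the mean and SD of 3 libraries (bars). The first 3 shares are higher in every GF_F library than in any CV_F library, the last is lower, and for mt-Rnr1 plus mt-Rnr2 the means are 15.0% and 1.70%.

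How many genes are read as higher or lower depends on the scaling of the libraries. On the deposited scale, 6917 of the 11853 genes (58.4%) were called by limma at an adjusted p under 0.05, 3650 of them higher in CV (30.8%) and 3267 lower (27.6%). The median over all genes tested was a log2 change of 0.05, and the 3 CV and 3 GF values did not overlap in 65.0% of genes, with CV above in 33.6% and below in 31.4%. Scaled to all reads, 5796 of the 11853 genes rose, 1205 fell (10.2%) and the median was 0.84. Scaled to the reads outside the 9 loci, 1884 rose, 4911 fell and the median was -0.57. When each library was scaled to the 10 hepatocyte messenger RNAs, a choice made after the data were seen, 440 genes rose (3.71%), 6520 fell (55.0%) and the median was -1.26. All 440 were also called higher on the deposited scale, with both scalings to reads and with TMM factors. The 1205 genes called lower when scaled to all reads (10.2%) were called lower under the other 4 scalings too. With the mt-Rnr1 plus mt-Rnr2 share of each library as a covariate, which nearly coincides with the condition, 2086 genes rose (17.6%) and 1128 fell (9.52%). A change of scale moves all genes by nearly the same amount and so shifts the zero point. Below, changes are on the deposited scale unless stated. For most lists, counts are also given scaled to all reads, to the hepatocyte markers or to both. Each count of list members stands against the share of all genes on the same scale. That share is 30.8% higher and 27.6% lower on the deposited scale, and 3.71% and 55.0% on the hepatocyte-marker scale. Scaled to all reads, 5796 of 11853 genes were higher and 10.2% lower, so a list can hold many higher members there without standing out. On the hepatocyte-marker scale nearly every gene is lower by about the distance between the medians of all genes on the 2 scales (0.05 and -1.26), also where no second value is printed. That scale reads a gene relative to 10 messenger RNAs of the same cell type. Several of these belong to lists below, among them 2 apolipoproteins, 2 acute phase proteins, Ahsg (complement and coagulation) and Cps1 (urea cycle). Scaled to all reads, nearly every gene is higher than on the deposited scale, and several falls named below are not called there.

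Genes with long transcripts were more often lower in CV and genes with short ones more often higher. When the genes were ordered by their longest annotated transcript and split into 5 bins of equal size, the bin of the shortest (up to 1922 bases) held 1241 genes that rose and 299 that fell, with a median log2 change of 0.86. The bin of the longest (5244 bases and more) held 188 that rose and 1314 that fell, with a median of -0.88. The medians of the bins between them were 0.53, 0.11 and -0.26. With the dependence on length and GC content taken out of each library, 3629 genes rose (30.8%) and 2673 fell (22.7%). All 8 tested nuclear long noncoding RNAs fell, with a median of -3.30, as did 33 of 40 splicing regulators whose transcripts often keep introns in the nucleus, with a median of -1.94 and none higher, beside 27.6% of all genes that fell. Malat1 measured 106330.0, 94894 and 100505 in the GF livers and 2919, 4217 and 2260.3 in the CV livers (log2 change -5.05 ± 0.35 SE, limma adjusted p = 9.8e-06). Among long coding transcripts, Luc7l2, a splicing factor, measured 1913, 1615 and 2034 in the GF livers and 138, 161 and 149 in the CV livers (-3.62 ± 0.20, adjusted p = 3.2e-06), and Neb, which encodes the muscle protein nebulin, measured 2891, 2181 and 3933 in the GF livers and 109.8, 131 and 105 in the CV livers (-4.66 ± 0.24, adjusted p = 2.5e-06). Neb was the 1 of 14 skeletal muscle markers with enough reads to be tested. The groups did not overlap in any of these cases, and the GF values were the high ones. Of 120 long intergenic noncoding RNAs tested, 69 fell and 10 rose, against 2918 and 3610 of 11279 protein-coding genes.

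**Figure D2:**
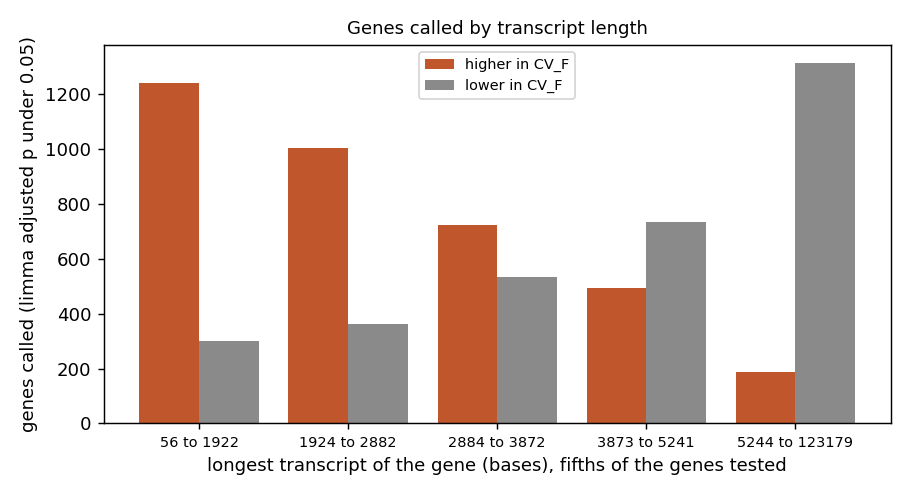
Number of genes called higher or lower in CV_F (bars, limma adjusted p under 0.05) in each of 5 bins of the tested genes ordered by the length of the longest annotated transcript, in bases. Calls pass from 1241 higher and 299 lower in the bin of the shortest to 188 higher and 1314 lower in the bin of the longest.

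Liver functions differed in where they stood in this order. On the deposited scale the lists with the highest medians were fatty acid oxidation (1.98 over 38 tested members), acute phase proteins (1.88, 30 members), bile acid synthesis (1.76, 17 members) and apolipoproteins (1.76, 22 members). On the hepatocyte-marker scale these 4 kept medians above 0, at 0.64, 0.53, 0.44 and 0.42, as did other lists, such as phase II enzymes (0.23) and cholesterol synthesis (0.16). The order below the first depended on transcript length and GC content. With that dependence taken out, the 4 medians were 1.57, 1.31, 1.34 and 1.26. Those of cholesterol synthesis (1.51), major urinary proteins (1.38) and phase II enzymes (1.32) then lay among them. Lists of control functions, such as transcription factors, clock genes, growth hormone signalling and interferon genes, lay between -0.23 and 0.08 on the deposited scale, near the median of all genes.

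**Figure D3:**
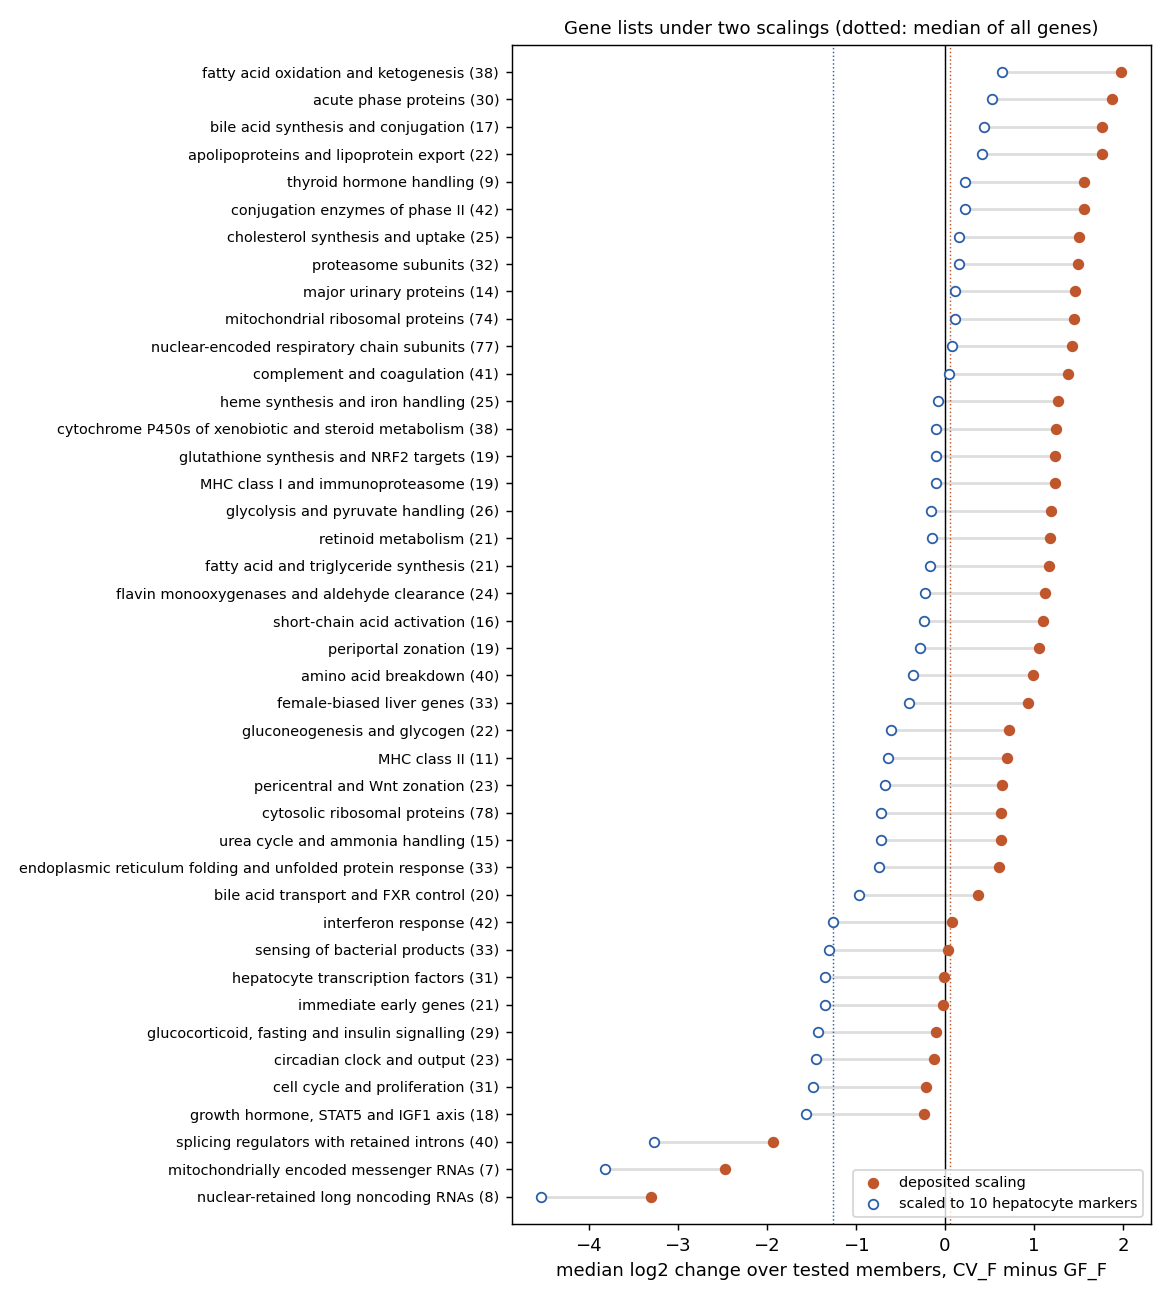
Median log2 change, CV_F minus GF_F, over the tested members (number in brackets) of each gene list on the deposited scale (filled) and scaled to 10 hepatocyte markers (open), with the medians of all genes as dotted lines (0.05 and -1.26). Fatty acid oxidation stands highest under both scales, at 1.98 and 0.64, and the nuclear long noncoding RNAs lowest.

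Genes of fat burning were higher in the CV livers. Of the 38 tested genes of fatty acid oxidation and ketogenesis, 34 rose, and none fell, beside 30.8% and 27.6% of all genes. On the hepatocyte-marker scale 16 were higher and 3 lower, beside 3.71% and 55.0% of all genes. Vnn1, the pantetheinase that frees vitamin B5 and a known target of the fat-sensing receptor PPARα, measured 95.1, 128 and 105 in the GF livers and 701, 869 and 1141 in the CV livers. The CV values were all above the GF values (log2 change 3.02 ± 0.24 SE, limma adjusted p = 1.1e-05), and the change was 1.68 relative to the hepatocyte messenger RNAs (adjusted p = 0.0016). Etfdh, which hands electrons from fat oxidation to the respiratory chain, measured 364, 346 and 279.9 in the GF livers and 1857, 1587 and 1721 in the CV livers (2.39 ± 0.21, adjusted p = 1.5e-05), again without overlap. Cpt1a, which admits long-chain fatty acids to mitochondria, measured 1257, 1694 and 1146 (GF) and 2574, 2377 and 2053 (CV), and rose (0.79 ± 0.23, adjusted p = 0.013), with a value of -0.56 on the hepatocyte-marker scale. Ppara itself measured 1079, 926 and 811 (GF) and 1223, 1223 and 1242 (CV) and was not called (0.40 ± 0.21, adjusted p = 0.12), and it stood at -0.94 on that scale. Cyp4a14, a microsomal fatty acid hydroxylase driven by PPARα, rose (1.71 ± 0.37, adjusted p = 0.0022, 0.37 on the hepatocyte-marker scale). Cpt1a was no longer called by limma when GF 1, CV 1 or CV 2 was left out (0.71 to 0.77, adjusted p = 0.053 to 0.059).

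The apolipoprotein list held the gene with the highest log2 change of all 11853. Apoa4, an apolipoprotein of triglyceride-rich particles and high-density lipoprotein, measured 109, 69.2 and 38.3 in the GF livers and 1394, 2426 and 3728 in the CV livers. Every CV liver was at least 10 times any GF liver (log2 change 5.12 ± 0.40 SE, limma adjusted p = 1.1e-05), and the change stayed at 3.78 on the hepatocyte-marker scale (adjusted p = 7.1e-05). In the list as a whole 16 of the 22 tested members rose and 1 fell, with 8 higher and 5 lower on the hepatocyte-marker scale. Apoa1, the main protein of high-density lipoprotein, measured 42981, 59386 and 14066 (GF) and 105344, 181241 and 183028 (CV) (2.20 ± 0.62, adjusted p = 0.01). Sar1b, the small GTPase that loads large lipoproteins into transport vesicles, rose (2.69 ± 0.28, adjusted p = 2.8e-05), and so did Tm6sf2, which lipidates them (2.23 ± 0.21, adjusted p = 2.1e-05). Apob, the large structural protein of these particles, measured 11803, 15973 and 13078 (GF) and 19778, 17508 and 18486 (CV) and was not called (0.46 ± 0.32, adjusted p = 0.23). Abca1, the exporter that passes cholesterol to apolipoprotein A-I, was the 1 member that fell, from 1310.3, 1189 and 1259 to 758, 649 and 557 (-0.95 ± 0.21, adjusted p = 0.0024). Scaled to all reads, Abca1 was -0.14 and not called (limma adjusted p = 0.70). Its direction turned to 0.36 (adjusted p = 0.12) with the dependence on length and GC content taken out.

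Most enzymes of sterol synthesis rose. In the list of cholesterol synthesis and uptake 20 of the 25 tested members rose and 0 fell (25 higher and 0 lower scaled to all reads, 5 and 4 scaled to hepatocyte markers), with a median of 1.502 (0.16 on the hepatocyte-marker scale). Pmvk, the phosphomevalonate kinase, measured 70.9, 104 and 42.2 in the GF livers and 361, 464 and 482 in the CV livers (2.65 ± 0.30, adjusted p = 4.9e-05). Acat2, the cytosolic enzyme that joins acetyl units for the pathway, rose by 2.53 and Ebp, a sterol isomerase, by 2.43 (adjusted p = 0.00011 and 6.7e-05). Srebf2, the transcription factor of the pathway, rose modestly (0.86 ± 0.24, adjusted p = 0.0097) and stood at -0.48 on the hepatocyte-marker scale. Fatty acid synthesis was split. 12 of 21 members rose and 3 fell (14 higher and 1 lower scaled to all reads, 4 and 7 scaled to hepatocyte markers). Fads2, a desaturase of polyunsaturated fatty acids, measured 669, 604 and 598 in the GF livers and 3569, 4186 and 3726 in the CV livers (2.61 ± 0.21, adjusted p = 1.1e-05). Fasn, the fatty acid synthase, rose by 0.79 (adjusted p = 0.035), and Scd1, which makes monounsaturated fat, by 1.498 (adjusted p = 0.027) with overlapping libraries. Acaca, which feeds Fasn with malonyl-CoA, fell from 699, 556 and 433 to 288, 279 and 263 (-0.995 ± 0.22, adjusted p = 0.0027). Scaled to all reads, Acaca was -0.19 and not called (limma adjusted p = 0.61). Its direction turned to 0.26 (adjusted p = 0.36) with the dependence on length and GC content taken out. Mlxipl, the sugar-sensing transcription factor ChREBP that drives these enzymes, measured 6657, 3120.1 and 8269 in the GF livers and 813, 910.2 and 842 in the CV livers (-2.70 ± 0.33, adjusted p = 6.9e-05), while Srebf1, their insulin-driven factor, was not called (0.65 ± 0.29, adjusted p = 0.078). Srebf2 was no longer called by limma when CV 3 was left out (0.70, adjusted p = 0.063), nor was Fasn when GF 1, GF 3, CV 1 or CV 2 was left out (0.52 to 0.85, adjusted p = 0.076 to 0.17), nor was Scd1 when GF 1, GF 3, CV 1 or CV 2 was left out (0.94 to 1.599, adjusted p = 0.066 to 0.11).

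Bile acids are made from cholesterol, joined to taurine in mice and reshaped by gut bacteria. Csad, which makes the taurine precursor hypotaurine, measured 198, 271 and 167 in the GF livers and 1834, 1937 and 2817 in the CV livers. No CV liver was below 6 times the highest GF value (log2 change 3.37 ± 0.25 SE, limma adjusted p = 9.8e-06), and it kept a change of 2.03 on the hepatocyte-marker scale (adjusted p = 0.00024). Exons of Csad overlap those of Zfp740 on the opposite strand, and the strand setting of the counting is not given in the sources used here. Cyp8b1, the 12α-hydroxylase that commits bile acids to cholic acid, measured 128, 255 and 312 in the GF livers and 1004, 3471 and 1777 in the CV livers, with the GF values low and no overlap (log2 change 3.07 ± 0.43 SE, limma adjusted p = 0.00014). Cyp7a1, the rate-limiting first enzyme of the classical route, did not show this. It measured 149, 207 and 182 in the GF livers and 52.2, 207 and 90.9 in the CV livers, the groups overlapped, and the gene was not called (-0.83 ± 0.40, adjusted p = 0.096). Slc27a2, the ligase that activates bile acids and very long chain fatty acids, rose (1.99 ± 0.24, adjusted p = 6.6e-05). In the synthesis list 12 of the 17 tested members rose and 0 fell (14 higher and 0 lower scaled to all reads, 5 and 4 scaled to hepatocyte markers), and 5 of them were higher under all 5 scalings (Akr1c6, Cdo1, Csad, Cyp8b1 and Scp2). In the list of bile acid transport and feedback control 6 of the 20 tested members rose and 6 fell (13 higher and 0 lower scaled to all reads, 1 and 12 scaled to hepatocyte markers), with a median of 0.37. On the deposited scale both shares, 30.0% and 30.0%, lie near the 30.8% and 27.6% of all genes. Slc10a1, the carrier that takes bile acids up from portal blood, measured 972, 1375 and 993 in the GF livers and 5726, 6189 and 5808 in the CV livers (2.42 ± 0.23, adjusted p = 2.3e-05). Abcb11, the pump that exports bile acids into bile, was not called (-0.63 ± 0.28, adjusted p = 0.067), and Abcc2, which exports conjugates, fell (-1.34 ± 0.22, adjusted p = 0.00042). Abcc2 was not called when scaled to all reads (-0.53, limma adjusted p = 0.12) or without the length and GC trend (-0.42, adjusted p = 0.073). Nr1h4, the bile acid receptor FXR, measured 1091, 928 and 918 (GF) and 584, 722 and 707 (CV) (-0.55 ± 0.20, adjusted p = 0.038), a change that was 0.26 and not called when scaled to all reads. Its target Nr0b2, a repressor of bile acid synthesis, was not called (0.66 ± 0.28, adjusted p = 0.061). Nr1h4 was no longer called by limma when GF 1, CV 1, CV 2 or CV 3 was left out (-0.60 to -0.45, adjusted p = 0.085 to 0.15).

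Enzymes that modify foreign compounds were mostly higher. Among the cytochrome P450s and their partners 24 of the 38 tested members rose and 1 fell, with a median of 1.24 that was -0.10 on the hepatocyte-marker scale, where 5 were higher and 7 lower. Cyp2b10, the classical target of the xenobiotic receptor CAR, measured 254, 141 and 123 in the GF livers and 1144, 1075 and 606 in the CV livers (2.46 ± 0.32, adjusted p = 9.3e-05; 1.12 on the hepatocyte-marker scale, adjusted p = 0.033). Cyp3a11, a target of the receptor PXR, rose by 1.90 and Cyp2e1, which oxidises ethanol and small solvents, by 1.91 (adjusted p = 0.00069 and 0.0015). Ahr, the receptor for dioxins and for bacterial indoles, measured 479, 455 and 454 (GF) and 188, 258 and 253 (CV) and fell (-1.001 ± 0.21, adjusted p = 0.0017). Scaled to all reads, Ahr was -0.19 and not called (limma adjusted p = 0.57). Of the conjugating enzymes of phase II, 35 of 42 rose and 1 fell (median 1.56), and 10 were higher and 4 lower on the hepatocyte-marker scale. Ephx1, which opens epoxides, measured 394, 644 and 349 (GF) and 3388, 2557 and 2729.9 (CV) (2.68 ± 0.26, adjusted p = 2.3e-05), and Gstp1, a glutathione transferase, measured 510.2, 1019 and 324 (GF) and 3661, 3309.7 and 2605 (CV) (2.51 ± 0.36, adjusted p = 0.00017). The member that fell was Ugt1a6a (-1.75 ± 0.25, adjusted p = 0.00019), while Ugt1a1, the bilirubin-conjugating enzyme, rose (2.52 ± 0.23, adjusted p = 2e-05). Both share their last exons with the other Ugt1a genes, so their reads are uncertain. Of the enzymes that clear alcohols and aldehydes, 17 of 24 rose and 2 fell (19 higher and 1 lower scaled to all reads, 8 and 6 scaled to hepatocyte markers). Aldh2, the main acetaldehyde dehydrogenase, measured 1908, 2961 and 1832 (GF) and 12686, 13428 and 11315 (CV) (2.51 ± 0.28, adjusted p = 4.1e-05). Adh1 changed by 2.41 and Aldh1b1 by 2.88 (adjusted p = 0.00012 and 1.8e-05). Fmo5, a flavin monooxygenase, was not called (-0.48 ± 0.27, adjusted p = 0.14). For enzymes that activate short-chain and aromatic acids, 12 of the 16 tested members rose and 0 fell, with Acsm1 at 1.63 ± 0.23, adjusted p = 0.00015. None of that list was higher on the hepatocyte-marker scale.

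Vitamin A and thyroid hormone enzymes gave some of the largest single changes. Retsat, retinol saturase, measured 214, 309 and 167 in the GF livers and 6012, 3246 and 5510.4 in the CV livers. The lowest CV value was more than 10 times the highest GF value (log2 change 4.41 ± 0.30 SE, limma adjusted p = 9.8e-06), and the change was 3.07 on the hepatocyte-marker scale (adjusted p = 7.7e-05). Rbp4, the plasma carrier of retinol, measured 5763, 9533 and 4884 (GF) and 31204, 40272 and 42928 (CV) (2.55 ± 0.36, adjusted p = 0.00016), and Dhrs4, a retinal reductase, rose by 2.56 (adjusted p = 1.1e-05). In the retinoid list 16 of the 21 tested members rose and 1 fell (18 higher and 0 lower scaled to all reads, 4 and 4 scaled to hepatocyte markers). Dio1, the deiodinase that converts thyroxine to active hormone in liver, measured 305, 423 and 249 in the GF livers and 2429, 2832 and 2912 in the CV livers (log2 change 3.09 ± 0.24 SE, limma adjusted p = 1.1e-05), and 1.75 relative to the hepatocyte messenger RNAs (adjusted p = 0.00028). Thrsp, a lipogenic gene induced by thyroid hormone, rose (1.70 ± 0.38, adjusted p = 0.0027). Thrb, the main liver receptor of the hormone, measured 205, 234 and 153 (GF) and 177, 153 and 182 (CV) and was not called (-0.19 ± 0.23, adjusted p = 0.48).

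**Figure D4:**
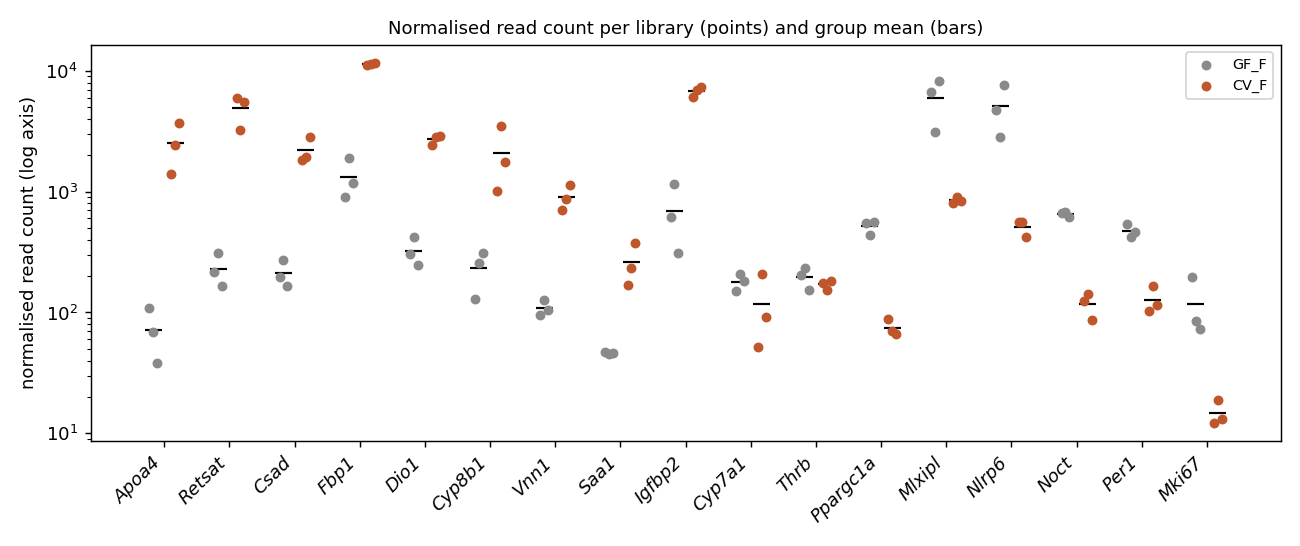
Normalised read count (log axis) of 17 genes in each GF_F and CV_F library (points) with group means (bars). The 9 genes at the left, from Apoa4 to Igfbp2, lie higher in every CV_F library, Cyp7a1 and Thrb overlap between groups, and the 6 at the right, from Ppargc1a to Mki67, lie lower in every CV_F library.

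In sugar metabolism an enzyme of gluconeogenesis rose and a coactivator of that pathway fell. Fbp1, fructose-1,6-bisphosphatase, measured 910.2, 1907 and 1179 in the GF livers and 11224, 11352 and 11698 in the CV livers (log2 change 3.17 ± 0.29 SE, limma adjusted p = 2e-05), and remained 1.82 higher on the hepatocyte-marker scale (adjusted p = 0.00042). Ppargc1a, the fasting-induced coactivator PGC-1α, measured 546, 439 and 565 in the GF livers and 88.7, 69.9 and 66.2 in the CV livers, with the CV values far below the GF values and no overlap (log2 change -2.77 ± 0.22 SE, limma adjusted p = 1.1e-05). Pck1, which makes phosphoenolpyruvate, rose by 1.06 (adjusted p = 0.023) and stood at -0.29 on the hepatocyte-marker scale. G6pc, which releases free glucose, measured 1461, 1261 and 751 (GF) and 2278, 1486 and 1749 (CV) and was not called (0.70 ± 0.28, adjusted p = 0.053). In the list of gluconeogenesis and glycogen 10 of the 22 tested members rose and 2 fell (18 higher and 1 lower scaled to all reads, 2 and 8 scaled to hepatocyte markers). These are shares of 45.5% and 9.09%, beside 30.8% and 27.6% of all genes. In glycolysis 18 of the 26 tested members rose and 5 fell (18 higher and 1 lower scaled to all reads, 7 and 8 scaled to hepatocyte markers). Eno1, enolase, measured 243, 409.6 and 328 in the GF livers and 2764, 2702 and 2581 in the CV livers (3.06 ± 0.23, adjusted p = 1e-05), and Pklr, the liver pyruvate kinase, rose by 1.74 (adjusted p = 0.00066). Pfkfb3, which makes the activator of glycolysis fructose-2,6-bisphosphate, fell (-1.24 ± 0.26, adjusted p = 0.002). Pck1 was no longer called by limma when GF 3, CV 1, CV 2 or CV 3 was left out (0.79 to 1.11, adjusted p = 0.057 to 0.089).

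In the list of the urea cycle and ammonia handling 7 of the 15 tested members rose and 1 fell, with a median of 0.62. These are shares of 46.7% and 6.67%, beside 30.8% and 27.6% of all genes. Scaled to all reads 12 were higher and 0 lower, and on the hepatocyte-marker scale none was higher and 6 were lower. Cps1, which captures ammonia and is 1 of the 10 scaling genes, measured 9528, 10398 and 10979.5 in the GF livers and 12149, 7808 and 6193 in the CV livers and was not called (-0.30 ± 0.32, adjusted p = 0.45). Otc, the next enzyme, rose (1.41 ± 0.32, adjusted p = 0.0028), and Glul, glutamine synthetase of the cells around the central vein, was not called (0.69 ± 0.35, adjusted p = 0.11). In amino acid breakdown 26 of the 40 tested members rose and 3 fell (34 higher and 0 lower scaled to all reads, 4 and 11 scaled to hepatocyte markers). Agxt, which detoxifies glyoxylate, measured 708, 1045 and 736 (GF) and 4782, 4078 and 4489.8 (CV) (2.44 ± 0.23, adjusted p = 2.2e-05), and Acmsd, which turns tryptophan breakdown away from NAD, fell (-1.597 ± 0.26, adjusted p = 0.00043). Acmsd was -0.80 and not called when scaled to all reads (limma adjusted p = 0.072). In the list of glutathione synthesis and NRF2 targets 17 of the 19 tested members rose and 2 fell (17 higher and 0 lower scaled to all reads, 4 and 2 scaled to hepatocyte markers). Prdx1, a peroxiredoxin, measured 1020.4, 2216 and 813 (GF) and 9196, 10657 and 10717 (CV) (3.05 ± 0.35, adjusted p = 4.7e-05). Gpx4, which reduces lipid peroxides, rose too (2.55 ± 0.35, adjusted p = 0.00014). Nfe2l2, the transcription factor NRF2 that many genes of this list answer to, fell (-1.09 ± 0.23, adjusted p = 0.0022). Of 25 genes of heme and iron, 15 rose and 5 fell (19 higher and 0 lower scaled to all reads, 4 and 8 scaled to hepatocyte markers). Ftl1, ferritin light chain, rose by 2.89 and Tfrc, the transferrin receptor, fell by 1.28 (adjusted p = 8.1e-05 and 0.0018). Hamp, which encodes the iron hormone hepcidin, measured 4049, 6589 and 2626 (GF) and 7244, 11097 and 11999.8 (CV) (1.26 ± 0.36, adjusted p = 0.011; -0.08 on the hepatocyte-marker scale). Its close copy Hamp2 measured 2498, 4301 and 2444 (GF) and 1767, 1509 and 648 (CV) and fell (-1.31 ± 0.37, adjusted p = 0.011), and reads of the pair could be exchanged in counting. Hamp was no longer called by limma when CV 3 was left out (1.12, adjusted p = 0.052), nor was Hamp2 when CV 3 was left out (-0.86, adjusted p = 0.055).

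Secreted defence proteins were higher. In the acute phase list 22 of the 30 tested members rose and 0 fell (27 higher and 0 lower scaled to all reads, 11 and 6 scaled to hepatocyte markers) with a median of 1.88. Saa1, serum amyloid A, the classical marker of the acute phase, measured 46.8, 45.2 and 46.0 in the GF livers and 169.9, 234 and 378 in the CV livers (log2 change 2.40 ± 0.29 SE, limma adjusted p = 6.1e-05), and 1.07 on the hepatocyte-marker scale (adjusted p = 0.043). The GF livers were nearly equal and the CV livers spread over a wider range. Saa2, almost the same sequence, also rose (1.56 ± 0.35, adjusted p = 0.0027), and reads of both are uncertain. Crp measured 735, 1673 and 694 (GF) and 5108, 4702 and 6585 (CV) (2.51 ± 0.33, adjusted p = 0.00011), Fgg, a fibrinogen chain, measured 3155, 5009 and 2252 (GF) and 23891, 23824 and 26639.7 (CV) (2.91 ± 0.34, adjusted p = 5.1e-05), and Hp, haptoglobin, rose by 1.82 (adjusted p = 0.0022). In complement and coagulation, 32 of 41 members rose and none fell (median 1.38, 0.04 on the hepatocyte-marker scale). C3, the centre of the complement cascade, rose (1.71 ± 0.39, adjusted p = 0.0032), and Serping1, the inhibitor of its first step, rose too (2.54 ± 0.23, adjusted p = 1.8e-05). Of 33 tested genes that sense bacterial products 5 rose and 8 fell, with a median of 0.03 (13 higher and 3 lower scaled to all reads, 1 and 21 scaled to hepatocyte markers). On the deposited scale these shares, 15.2% and 24.2%, lie below the 30.8% and 27.6% of all genes. Pglyrp2, an amidase that cleaves bacterial cell wall, measured 98.1, 152 and 74.8 (GF) and 384, 672 and 631 (CV) (2.39 ± 0.30, adjusted p = 8e-05). Nlrp6, an inflammasome sensor, measured 4747, 2825 and 7688 in the GF livers and 561.5, 558 and 425 in the CV livers, with the CV values low and no overlap (-3.20 ± 0.33, adjusted p = 2.8e-05). Nfkbiz, an NF-κB cofactor, fell (-2.48 ± 0.27, adjusted p = 3.9e-05), Nfkbia, the inhibitor induced by NF-κB, measured 788, 750.1 and 677 (GF) and 718, 829 and 791 (CV) and was not called (0.08 ± 0.20, adjusted p = 0.75), and Tlr4, the receptor for endotoxin, was not called at low values of 10.6 to 19.2 in GF and 8.43 to 10.9 in CV (-0.56 ± 0.44, adjusted p = 0.3).

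Among interferon genes 13 of the 42 tested members rose and 7 fell (23 higher and 2 lower scaled to all reads, 0 and 24 scaled to hepatocyte markers), and the median was 0.08. The share that rose, 31.0%, is near that of all genes (30.8%), and the share that fell was 16.7%, beside 27.6%. Interferons act through STAT factors that bind the interferon-stimulated response element, whose letters GAAANNGAAA (TTTCNNTTTC when read on the other strand) were searched on both strands in the 250 bases before the start of each gene, with overlapping matches kept. The letters were found in 3.46% of 27025 genes with a RefSeq promoter (build GRCm38.p6), in 3.42% of the genes that rose, in 3.33% of those that fell, and in 17 of the 31 tested interferon genes with a promoter. Of these 17, 6 rose, 3 fell and 8 were not called. The windows of 6 of them, in order of their change from raised to lowered, are given 5′ to 3′ on the strand of the gene with the letters of the element in capitals, since genes that carry the same element moved apart. Isg15, Ifit3b and Cxcl10 were chosen for this after their values were seen.
Ifit3b: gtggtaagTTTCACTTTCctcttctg
Igtp: taggaactGAAACTGAAAgctgttcg
Isg15: aggaaaccGAAACAGAAAatagctct
Cxcl10: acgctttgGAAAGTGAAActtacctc
Trim30a: ttctttagTTTCTTTTTCtcagttcc
Stat2: caccctggTTTCAGTTTCctttccct
These lie at chr19:34607761-34607786 (plus strand) for Ifit3b, chr11:58199514-58199539 (plus) for Igtp, chr4:156200867-156200892 (minus) for Isg15, chr5:92349085-92349110 (minus) for Cxcl10, chr7:104465212-104465237 (minus) for Trim30a and chr10:128270268-128270293 (plus) for Stat2, all upstream of the transcript. Ifit3b and Isg15 hold further matches that are not printed, and a match of letters is no evidence that a factor was bound.

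Beside these windows, Ifit3b, an interferon-induced protein with tetratricopeptide repeats, measured 1.51, 13.3 and 7.67 (GF) and 30.3, 31.6 and 32.5 (CV) (2.26 ± 0.59, adjusted p = 0.0069). It is nearly identical to Ifit3, so its reads are uncertain. Isg15, a ubiquitin-like modifier, measured 60.4, 117 and 44.1 (GF) and 136, 197 and 165 (CV) (1.26 ± 0.33, adjusted p = 0.0069), and Igtp, a GTPase against intracellular microbes, measured 99.6, 157 and 142 (GF) and 442, 274 and 303 (CV) (1.34 ± 0.26, adjusted p = 0.0011). Cxcl10, a chemokine that interferon induces strongly, measured 22.6, 31.9 and 38.3 (GF) and 38.7, 16.8 and 30.7 (CV) and was not called (-0.15 ± 0.38, adjusted p = 0.75). Trim30a, a tripartite motif protein induced by interferon, measured 209.8, 197 and 249 (GF) and 63.9, 65.2 and 68.0 (CV) and fell (-1.71 ± 0.21, adjusted p = 7.4e-05). Stat2, the STAT partner of type I interferon signalling, measured 1173, 689 and 1179 (GF) and 228, 234 and 204 (CV) and fell too (-2.14 ± 0.24, adjusted p = 4.7e-05), and neither gene overlapped between groups. Zbp1, a sensor of nucleic acid, and Ifi27 rose (2.30 ± 0.40, adjusted p = 0.00055 and 2.02 ± 0.21, adjusted p = 3.3e-05).

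Of antigen presentation genes, 13 of 19 class I members rose and 2 fell (15 higher and 0 lower scaled to all reads, 2 and 5 scaled to hepatocyte markers), with H2-T23 at 2.17 ± 0.22, adjusted p = 2.8e-05 and H2-K1 at 1.37 ± 0.27, adjusted p = 0.0012. B2m, the shared light chain, was not called (0.78 ± 0.39, adjusted p = 0.11), and class I genes are close copies of each other. Class II gave 5 higher and 1 lower of 11 (8 higher and 1 lower scaled to all reads, 0 and 3 scaled to hepatocyte markers), shares of 45.5% and 9.09% beside 30.8% and 27.6% of all genes. Cd74, the invariant chain, measured 429, 944 and 429 (GF) and 1155, 935 and 1047 (CV) and was called higher although the groups overlapped (0.90 ± 0.30, adjusted p = 0.023), and H2-Aa was not called (0.53 ± 0.35, adjusted p = 0.21). Cd74 was no longer called by limma when GF 1, GF 3, CV 1 or CV 3 was left out (0.71 to 0.90, adjusted p = 0.062 to 0.11). Markers of resident immune cells moved apart from each other. Among 15 tested Kupffer cell and macrophage markers, 7 rose (46.7%) and 1 fell (6.67%), with 11 higher and 0 lower scaled to all reads, 0 and 6 scaled to hepatocyte markers. The summed value of all 17 listed was 2767, 3301 and 2279 in GF and 4003, 5049 and 4873 in CV. Clec4f, a lectin that marks Kupffer cells, measured 815, 636 and 874 (GF) and 764, 971 and 878 (CV) with overlap and was not called (0.17 ± 0.22, adjusted p = 0.51; -1.17 on the hepatocyte-marker scale, adjusted p = 0.019), nor was Adgre1, the macrophage antigen F4/80 (0.62 ± 0.25, adjusted p = 0.051). C1qa, a complement chain made by these macrophages, measured 78.5, 130.3 and 61.3 (GF) and 278, 363 and 349 (CV) (1.92 ± 0.28, adjusted p = 0.00019), and C1qb rose by 1.598 (adjusted p = 0.00032). Of 17 lymphocyte markers 13 fell (76.5%, beside 27.6% of all genes) and none rose (0 higher and 6 lower scaled to all reads, 0 and 15 scaled to hepatocyte markers). The sums over all 23 listed were 1017, 936 and 909 in GF and 241, 273 and 253 in CV. Ptprc, the pan-leukocyte antigen CD45, measured 320.0, 215 and 349 (GF) and 55.5, 45.008 and 53.0 (CV) (-2.48 ± 0.24, adjusted p = 2.4e-05), and the T-cell receptor subunit Cd3e measured 43.8, 23.9 and 24.9 (GF) and 7.57, 7.39 and 9.63 (CV) (-1.75 ± 0.41, adjusted p = 0.0036). Sinusoidal endothelial markers fell in 9 of 15 cases (60.0%) and rose in 1, with Stab2, their scavenger receptor, at -2.10 ± 0.29, adjusted p = 0.00013. The split of this list depended on the scaling, with 3 higher and 3 lower scaled to all reads, 0 and 13 scaled to hepatocyte markers. Of 5 red blood cell markers 4 fell (0 higher and 4 lower scaled to all reads, 0 and 5 scaled to hepatocyte markers). The summed endothelial markers were 4927, 4743 and 7039 in GF and 2617, 2481 and 2702 in CV, and the summed red blood cell markers 5291, 32922 and 7650.0 and 916, 1995 and 1665, in both cases without overlap. None of 13 exocrine pancreas markers passed the filter. In bulk liver, fewer cells of a type and less RNA per cell cannot be told apart, and all of these moved together with the ribosomal and nuclear read shares, whose part was not tested. Igha, the constant region of immunoglobulin A, the antibody of mucosal surfaces, had 0 reads in all 3 GF livers and 24, 12 and 30 reads in the CV livers, or normalised counts of 10.1, 8.06 and 18.1. Its mean over the 6 libraries was below 10, so it was not tested. Against the limit that a count of 0 allows, 3 reads over the GF group, it was at least 6.28-fold higher in CV on the deposited scale.

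Period genes of the clock and Noct were lower in the CV livers. Noct, nocturnin, a rhythmic gene of lipid handling, measured 667, 684 and 611 in the GF livers and 124, 142 and 87.3 in the CV livers (log2 change -2.49 ± 0.23 SE, limma adjusted p = 1.9e-05). Per1 measured 536, 420.3 and 464 in the GF livers and 103, 165 and 116 in the CV livers (-1.90 ± 0.23, adjusted p = 6.9e-05), and Per2, its partner in the negative arm of the clock, fell too (-1.83 ± 0.31, adjusted p = 0.00049). The groups did not overlap in any of these. Arntl (BMAL1) measured 39.2, 16.0 and 23.002 (GF) and 23.1, 18.8 and 14.5 (CV) and Dbp, an output gene of the clock, measured 121, 207 and 406 (GF) and 271, 435 and 408 (CV), and neither was called (-0.38 ± 0.41, adjusted p = 0.44 and 0.74 ± 0.38, adjusted p = 0.11). Bhlhe40, a clock repressor, rose (1.67 ± 0.23, adjusted p = 0.00012). In the clock list 3 of the 23 tested members rose and 8 fell (10 higher and 3 lower scaled to all reads, 0 and 15 scaled to hepatocyte markers), so that 34.8% fell, beside 27.6% of all genes. In the list of glucocorticoid, fasting and insulin signalling 3 of the 29 tested members rose and 8 fell (12 higher and 3 lower scaled to all reads, 0 and 22 scaled to hepatocyte markers), shares of 10.3% and 27.6%, the latter that of all genes. In both lists the direction depended on the scaling. The hour at which each liver was taken is not given in the sources used here, and its part was not tested. Of 21 immediate early genes, which rise within minutes of tissue stress, 2 rose and 3 fell (8 higher and 0 lower scaled to all reads, 0 and 13 scaled to hepatocyte markers). Their shares on the deposited scale, 9.52% and 14.3%, lie below the 30.8% and 27.6% of all genes. The summed value of all 29 listed was 2589, 2710.5 and 2417 in GF and 2319.6, 2378 and 2438 in CV, so that these overlapped.

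Growth hormone sets much of the difference between male and female mouse liver. Igfbp2, a binding protein of insulin-like growth factors, measured 622, 1157 and 312 in the GF livers and 6071, 6904 and 7350.4 in the CV livers (log2 change 3.47 ± 0.39 SE, limma adjusted p = 4.3e-05; 2.13 on the hepatocyte-marker scale, adjusted p = 0.00012). Cux2, a transcription factor of female liver, measured 374, 489 and 533 (GF) and 60.6, 128 and 123 (CV) and fell (-2.22 ± 0.30, adjusted p = 0.00011), and Cish, a feedback inhibitor of the hormone's receptor, fell as well (-1.13 ± 0.36, adjusted p = 0.018). Igf1 was not called (0.85 ± 0.41, adjusted p = 0.092). Cish was no longer called by limma when GF 1, CV 1 or CV 2 was left out (-1.06 to -0.82, adjusted p = 0.062 to 0.085). In the axis as a whole 5 of the 18 tested members rose and 8 fell (7 higher and 4 lower scaled to all reads, 2 and 10 scaled to hepatocyte markers), shares of 27.8% and 44.4% beside 30.8% and 27.6% of all genes. With the dependence on length and GC content taken out, 7 were higher and 4 lower. Among genes known for higher expression in female liver 16 of the 33 tested members rose and 4 fell (22 higher and 2 lower scaled to all reads, 6 and 11 scaled to hepatocyte markers). These are shares of 48.5% and 12.1%, beside 30.8% and 27.6% of all genes. A1bg, a secreted glycoprotein and the leading gene of that list, measured 179.6, 114 and 46.0 in the GF livers and 1824, 3404 and 3437 in the CV livers (log2 change 4.80 ± 0.43 SE, limma adjusted p = 1.7e-05), and 3.47 on the hepatocyte-marker scale (adjusted p = 8.1e-05). Cyp2a4, a steroid hydroxylase close in sequence to Cyp2a5, measured 1339, 1341 and 692 (GF) and 3754, 5372 and 6429 (CV) (2.23 ± 0.31, adjusted p = 0.00015). Major urinary proteins, carriers of scent molecules that are usually abundant in males, rose in 7 of 14 members (12 higher and 0 lower scaled to all reads, 2 and 1 scaled to hepatocyte markers). Mup3 changed by 2.36 and Mup20 by 1.96 (adjusted p = 0.00055 and 0.0001), in a family of near-identical copies whose reads cannot be assigned with certainty.

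Of 31 transcription factors of hepatocyte identity, 6 rose and 10 fell (13 higher and 4 lower scaled to all reads, 0 and 20 scaled to hepatocyte markers). These are shares of 19.4% and 32.3%, beside 30.8% and 27.6% of all genes. The split of this list turned with the scaling, as that of all genes did. Cebpa measured 186, 279 and 220.4 (GF) and 639.7, 779 and 952 (CV) (1.79 ± 0.23, adjusted p = 0.0001) and Hnf4a rose by 0.68 (adjusted p = 0.014, -0.67 on the hepatocyte-marker scale). Onecut1 (HNF6) and the Wnt effector Tcf7l2 fell (-2.16 ± 0.32, adjusted p = 0.00022 and -2.07 ± 0.22, adjusted p = 3e-05). Hnf4a was no longer called by limma when CV 1, CV 2 or CV 3 was left out (0.65 to 0.71, adjusted p = 0.053 to 0.064). Mki67, a marker of dividing cells, measured 196, 85.1 and 72.8 in the GF livers and 12.2, 18.8 and 13.2 in the CV livers (-2.80 ± 0.38, adjusted p = 0.00013), and Top2a, a topoisomerase of dividing cells, fell too (-2.19 ± 0.49, adjusted p = 0.0029). Both have long transcripts, and Ccnd1, the cyclin that starts hepatocyte division, was not called (0.84 ± 0.50, adjusted p = 0.17). In the cell cycle list 5 of the 31 tested members rose and 7 fell (12 higher and 4 lower scaled to all reads, 0 and 18 scaled to hepatocyte markers). Its shares on the deposited scale, 16.1% and 22.6%, lie below the 30.8% and 27.6% of all genes. Of the genes of endoplasmic reticulum folding 14 of 33 rose and 5 fell (23 higher and 2 lower scaled to all reads, 0 and 17 scaled to hepatocyte markers). These are shares of 42.4% and 15.2%, beside 30.8% and 27.6% of all genes. Xbp1, a transcription factor of the secretory pathway, measured 609.9, 484 and 533 (GF) and 1422, 1558 and 1552 (CV) (1.48 ± 0.20, adjusted p = 0.00012). Of the genes that mark the zones of the liver lobule, 11 of 19 periportal (57.9%) and 9 of 23 pericentral genes (39.1%) rose, beside 30.8% of all genes. None and 2 (8.70%) fell, beside 27.6% of all genes. On the hepatocyte-marker scale 3 and 0 were higher and 5 and 7 lower, beside 3.71% and 55.0% of all genes.

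Genes of the respiratory chain differed between those encoded in the nucleus and those encoded in the mitochondrion. Of 77 nuclear-encoded subunits of the respiratory chain, 60 rose and none fell (median 1.42, 0.08 on the hepatocyte-marker scale). Sdhd, a subunit of succinate dehydrogenase, measured 193, 378 and 178 in the GF livers and 2352, 2304 and 2223 in the CV livers (3.28 ± 0.28, adjusted p = 1.4e-05). The 7 tested messenger RNAs encoded by the mitochondrial genome all fell, with a median of -2.47. mt-Cytb, cytochrome b, measured 148624, 249187 and 85421 in the GF livers and 23475, 30439 and 25455 in the CV livers (-2.48 ± 0.53, adjusted p = 0.002). mt-Co1, a subunit of cytochrome oxidase, measured 168014, 298385 and 111145 in the GF livers and 34351, 37464 and 4646 in the CV livers, so that the CV library with replicate number 3 stood far below the others although its mt-Cytb did not. Without that library the change of mt-Co1 was -2.31 ± 0.72 (adjusted p = 0.021). The 6 other mitochondrial messenger RNAs are listed at 0 or 1 read in every one of these libraries, so no change can be read from them. Ribosomal protein genes of the mitochondrion rose in 65 of 74 cases (73 higher and 0 lower scaled to all reads, 2 and 5 scaled to hepatocyte markers), with Mrpl28 at 2.54 ± 0.21, adjusted p = 1.4e-05, and all 32 proteasome subunits rose (32 higher and 0 lower scaled to all reads, 8 and 0 scaled to hepatocyte markers), with a median of 1.497 and Psmd8 at 2.37 ± 0.20, adjusted p = 1.4e-05. Of the cytosolic ribosomal proteins, 29 of 78 rose (37.2%, beside 30.8% of all genes) and 1 fell, with a median of 0.63. The direction of this list depended on the scaling, with 69 higher and 0 lower scaled to all reads, 1 and 38 scaled to hepatocyte markers (median -0.71). Rplp0, the acidic stalk protein, rose by 2.02 (adjusted p = 8e-05). Across all genes with an established symbol, the smallest p-values among those that rose included those of Yif1a of the Golgi (115, 125 and 102 (GF) and 1017, 1036 and 1046 (CV), 3.18 ± 0.19, adjusted p = 6.5e-06), Abhd14b, a lysine deacetylase (3.45 ± 0.21, adjusted p = 6.5e-06), and Rnf5, a ubiquitin ligase of the endoplasmic reticulum (3.74 ± 0.28, adjusted p = 9.8e-06). Among those that fell they included the noncoding RNAs Kcnq1ot1 (2224, 1995 and 1771 (GF) and 93.4, 77.3 and 71.6 (CV), -4.61 ± 0.21, adjusted p = 1.3e-06) and Rapgef4os3 (-5.88 ± 0.30, adjusted p = 2.5e-06) and Nktr, a cyclophilin of splicing speckles (-3.32 ± 0.21, adjusted p = 7.8e-06). Clk1, a kinase of splicing factors, fell as well (-2.95 ± 0.21, adjusted p = 9.8e-06). Exons of Abhd14b and Kcnq1ot1 overlap other genes on the opposite strand.

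The same comparison in the libraries labelled male asks whether the change in the F-labelled livers is particular to them. Their mt-Rnr1 plus mt-Rnr2 share ran from 9.36% to 11.5% in GF and from 1.39% to 6.32% in CV, so the read composition differed there too. A direct test of the difference between the 2 effects, the interaction in limma over all 12 libraries, called 0 of 11782 genes (0.0%), with 1382 at an unadjusted p under 0.05 (11.7%), and edgeR called 0, with 1424 at an unadjusted p under 0.05. The library labelled CV male with replicate number 3 carries Xist and lacks reads of Y-linked genes, against its label. Without it, 4 genes were called (0.034%), all with a more positive change in the F-labelled livers, with 937 at an unadjusted p under 0.05 (7.95%), and without the one with replicate number 1, 282 were called. Of these 4, A1bg differed by 6.14 ± 0.70 SE (limma adjusted p = 0.0012 without that library and 0.42 with it). Its values in the libraries labelled male were 9.85, 12.0 and 11.3 in GF and 7.81, 1.59 and 529.7 in CV, the last being the library at odds with its label. List medians in the libraries labelled male were 1.08 for fatty acid oxidation, 0.93 for bile acid synthesis, 0.98 for acute phase proteins and -1.47 for splicing regulators. Apoa4 changed by 4.06, Retsat by 2.13, Csad by 2.28 and Ppargc1a by -1.94 there. G6pc lay higher in every F-labelled CV library and lower in every M-labelled one than in the GF libraries of the same label (changes of 0.70 and -1.59), and the difference of 2.29 was not called (adjusted p = 0.42).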

How the data were processed

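RNA from snap-frozen liver was extracted with an RNeasy kit and made into libraries with a stranded TruSeq messenger RNA kit. The submitters' processing notes name HTSeq 0.6.1p1, DESeq2 and the mouse build GRCm38. The aligner, the annotation and the strand setting of the counting are not given in the sources used here. The deposited values are a signal, gene counts that the authors divided by 1 size factor per library. Dividing by the smallest step returned whole reads for 100% of the values within a tolerance of 0.01, with 5993619 to 6458507 reads in the GF and 10743254 to 15290835 in the CV livers, of which 1811042 to 2680113 and 9933889 to 14403918 lay outside the 9 abundant loci. The shallower GF libraries give low genes the larger counting error.

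Genes with a mean of at least 10 over the 6 libraries were tested with limma 3.58.1 (trend, 6 libraries, no covariate) on log2(value + 1), a scale that understates the change of low genes, in R 4.3.3, with Benjamini-Hochberg adjustment over all genes and a call at 0.05. Shares of reads were compared with an exact two-sided permutation test. The difference between F- and M-labelled effects was an interaction term over 12 libraries. Lists are described by counts and medians with no test of the list. Genes named are key members of each list, the 3 called members of smallest p without overlap in each direction, and the 10 smallest p in each direction over all genes with an established symbol. The members and lists were chosen with earlier results of these data known, and Isg15, Ifit3b and Cxcl10 were named after their values were seen. Positions and transcript lengths came from GENCODE M21, which held 40254 of the 41128 identifiers (97.9%), and promoters from RefSeq (GRCm38.p6). Exons of Srebf1, Dbp and Adh1 also overlap those of other genes. Some named items are not reported here. Alternatives were other pseudocounts, minimum values, thresholds and scalings, edgeR 4.0.16, DESeq2 1.42.0 and limma-voom on the whole reads, thinning to equal reads, the 12-library fit, a replicate block, the ribosomal share as a covariate, removal of a length and GC trend, and leaving out each library. Scaling to 10 hepatocyte markers was added after the data were seen. The main fit did not pair libraries by the replicate numbers shared by the groups. The deviations of same-numbered libraries correlated at -0.006, 0.016 and -0.165. With 3 libraries per group, these values cannot show whether same-numbered mice shared a litter, a cage or a processing step.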

Additional observations from a re-analysis of the deposited data

Results flagged for a closer look

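With the library labelled CV male 3 left out, 4 genes differed between the F- and M-labelled effects by the interaction in limma, and with it in the fit none did. The differences, F minus M on the log2 scale, were 6.14 for A1bg, described above, 4.07 ± 0.60 SE, adjusted p = 0.018 without and 0.71 with that library for Cyp2a4, 3.38 ± 0.57 SE, adjusted p = 0.045 without and 0.6 with that library for Cyp2c69, a P450 of female liver, and 3.16 ± 0.48 SE, adjusted p = 0.018 without and 0.42 with that library for Arl4d, a small GTPase. Cyp2a4 measured 52.8, 34.6 and 25.5 in the GF and 17.7, 4.77 and 2069.6 in the CV libraries labelled male. Cyp2c69 measured 1356, 1928 and 581 in the GF and 3844, 6497 and 8762 in the CV libraries labelled female, against 147, 216 and 184 and 90.6, 89.0 and 3749 in those labelled male. The CV male 3 value of both genes lies among those labelled female. Arl4d measured 252, 234 and 109 in GF and 289.8, 261 and 199 in CV among those labelled female, and 495, 549.6 and 383 and 88.5, 53.3 and 168 among those labelled male, where the CV values were the low ones.

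Among the list members below the filter, 2 genes had at least 3 reads in every CV liver and none in any GF liver labelled female. Genes outside the lists met this rule too, such as A630076J17Rik (22, 15 and 39 reads in CV). Others had reads in every GF liver and none in CV, such as Gm29055 (19, 4 and 17). The GF livers had fewer reads outside the 9 loci (1811042 to 2680113, against 9933889 to 14403918), so absence there is the weaker observation. Igha had a mean normalised count of 12.1 in CV. Mup13, a major urinary protein, had a mean of 3.27 from 5, 7 and 5 reads. On the deposited scale this is at least 1.70-fold above the limit of 3 reads over the GF group. That limit covers counting error only, and the fold depends on the scaling.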

How the results depend on the processing

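The scaling moved the split of calls between higher and lower, while tools, pseudocounts and TMM factors moved the 6917 calls by less than 1.5 times. Genes higher in CV numbered 5796 scaled to all reads, 1884 scaled to reads outside the 9 loci, 2086 with the ribosomal share as covariate and 440 scaled to hepatocyte markers, and genes lower numbered 1205, 4911, 1128 and 6520. The covariate left 3214 calls in all, and a minimum mean of 50 left 2175 lower. The share of the 9 abundant loci, which include genes not annotated as ribosomal RNA, differed by 58.4 percentage points (9.20-fold). For mt-Rnr1 plus mt-Rnr2 the difference was 13.3 points (8.79-fold). Whether reads at the other loci come from ribosomal RNA was not tested, so the mt-Rnr1 plus mt-Rnr2 share may not be the whole ribosomal share. Leaving out 1 library gave 5719 to 7738 calls, 12.6 to 14.0 percentage points of mt-Rnr1 plus mt-Rnr2 share, and 0 to 282 genes in the interaction, 4 of them without CV male 3 and 282 without CV male 1. With the replicate number as a block, 6781 genes were called (3619 higher and 3162 lower) and 0 in the interaction.

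Of 142 named genes over 27 alternatives, the sign turned in 61 cases, and in 23 of them the gene was called under the reported settings or the alternative. The other 38 concerned genes called under neither, such as Dbp, Ccnd1 and Cyp7a1. Among called genes, scaling to hepatocyte markers gave Apob -0.89, Cpt1a -0.56, Ppara -0.94, Srebf2 -0.48, Fasn -0.55, Pck1 -0.29, Hamp -0.083, Nfkbia -1.26, Isg15 -0.068, B2m -0.56, Cd74 -0.44, Clec4f -1.17 and Hnf4a -0.67. Without the length and GC trend they became 0.36 for Abca1, 0.26 for Acaca and -0.70 for Nfkbia. With the covariate they became 0.73 for Acaca, 0.44 for Pfkfb3, 1.78 for Hamp2, 2.37 for mt-Co1 and 4.57 for mt-Cytb. Nr1h4 became 0.26 scaled to all reads and Nfkbia -0.56 scaled outside the 9 loci. Relative to all genes, list medians changed sign in 36 cases, 3 of them for lists more than 0.5 from all genes. Of those, the medians of MHC class II (-0.15) and cytosolic ribosomal proteins (-0.029) turned without the length and GC trend, and that of mitochondrial messenger RNAs (5.19) with the covariate. The other 33 concerned lists nearer to all genes, such as the growth hormone axis (-0.28, and 0.30 without the length and GC trend) and the fasting list (-0.16 and 0.017). The causes were not tested, and the covariate nearly coincides with the condition, so its estimates carry large errors. Depth limits low genes most in the GF livers.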
